A study of Drosophila melanogaster with 2 samples.

Results

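The genes described are 33 genes of the Drosophila melanogaster piRNA pathway, examined for binding of GFP-tagged Ovo at their starts. They were chosen by name for their known roles and not by a threshold on the data, but with earlier results of these data known. All 33 matched a current gene symbol among the 13945 protein-coding genes of the 6 chromosome arms. By role, 9 genes act in ping-pong amplification and the nuage, 10 in piRNA biogenesis and the maturation of piRNA 3′ ends, 7 in nuclear silencing and 7 in the transcription and export of piRNA clusters. By the cells that use them, 13 are known as germline genes alone and 20 also act in the follicle cells, the somatic cells that surround the germline of the ovary.

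Piwi-interacting RNAs (piRNAs) are small RNAs of animal gonads that guide PIWI proteins to transposon transcripts. In the Drosophila ovary, long transcripts of piRNA clusters are exported to the nuage, a granule at the nuclear membrane, where Aubergine and AGO3 cut transposon and cluster RNA in turn (the ping-pong cycle). Other precursors are processed at the mitochondrial surface and loaded into Piwi, which enters the nucleus and directs heterochromatin onto transposons. Ovo is a zinc-finger transcription factor needed in the female germline.

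Chromatin was immunoprecipitated with an antibody against GFP from whole adult females of a transgenic line in which GFP is fused to the C terminus of Ovo, and was sequenced (ChIP-seq). The females' age is recorded as unknown, and sonicated fragments were 200 to 800 bp long. There was 1 group of 2 biological replicates, numbered 1 and 4, so no comparison between conditions and no test across samples existed; the control experiment that the labels name was not analysed here. Because whole flies were used, the cells in which a site was occupied cannot be told apart, the GFP fusion stands in for the native protein, and no RNA was measured, so the labelled material could not be checked against marker genes.

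The values are peak lists on the dm6 genome. Each peak has a summit, the position of its strongest enrichment, and a score, the authors' own enrichment value, which was used only to rank peaks within 1 list (rank 1 is the highest score). Each replicate has a list of 30000 peaks, and another list of 30000 peaks was called on both replicates together; these lists are long enough to hold background as well as binding. The thresholded list of 4477 peaks holds the best-ranked peaks of the pooled list, so a rank in it is also a pooled rank. A gene counted as having a peak when any of its annotated transcription start sites (TSSs) had a summit at a distance of 500 bp or less. Read depth is unknown, because the lists hold no counts.

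Sequences at 5 member summits are shown first: papi, because it held the best-ranked summit of any member, and piwi, armi, spn-E and Nbr, because each had a searched motif within 50 bp of a summit in DNA outside annotated exons. They are given 5′ to 3′ on each gene's own strand, from the RefSeq release 6 genome (dm6). Capitals mark TAACNGT, the core of a known Ovo binding sequence, the shorter TAACGG, or TATCGATA, the DNA replication-related element (DRE), on either strand. ACAGTTA and CCGTTA are the reverse complements of TAACTGT and TAACGG.
papi, chr2L:2221885-2222005, plus strand: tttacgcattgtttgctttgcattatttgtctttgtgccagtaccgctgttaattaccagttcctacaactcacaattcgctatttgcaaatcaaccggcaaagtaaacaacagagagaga
spn-E, chr3R:15837314-15837418, plus strand: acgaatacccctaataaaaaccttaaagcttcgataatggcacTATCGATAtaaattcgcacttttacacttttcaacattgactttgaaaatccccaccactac
piwi, chr2L:10987161-10987248, minus strand: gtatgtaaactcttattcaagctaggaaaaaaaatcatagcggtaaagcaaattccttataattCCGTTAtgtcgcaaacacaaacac
armi, chr3L:3461672-3461792, plus strand: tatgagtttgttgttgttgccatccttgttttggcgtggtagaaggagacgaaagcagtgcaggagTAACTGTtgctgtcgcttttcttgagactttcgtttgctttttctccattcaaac
Nbr, chr2L:21163425-21163545, minus strand: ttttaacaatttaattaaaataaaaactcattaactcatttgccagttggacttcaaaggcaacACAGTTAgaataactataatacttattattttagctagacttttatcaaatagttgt
The papi window, centred on an intronic summit upstream of an internal start, held no searched motif within 50 bp of the summit; GAGAG, the site of the GAGA factor, occurs in its last bases, beyond that distance. The other windows held 1 match each.

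The next sequences show further core and TAACGG matches within 50 bp of a summit, each with the bases on either side. papi at its most upstream start carried TAACGGT, in which both motifs overlap, and del and vret were below the threshold of the thresholded list.
papi at its most upstream start, chr2L:2220731-2220759, plus strand: gttggaactgaTAACGGTcacaccgcttc
nxf2, chr3L:16580241-16580268, minus strand: agtttgtagtaTAACGGaattttcataa
qin, chr3R:18590991-18591019, plus strand: gcgtgcttgaaTAACTGTtcttcgtgtga
del, chr2L:21148383-21148411, minus strand: cactggtatgaACTGTTAaagttaatgcg
vret, chr3R:22745606-22745634, minus strand: tgacttcaacaACAGTTAcaatagcaaca
The matches in qin, papi and nxf2 were on the strand of the gene, and those in del and vret were on the opposite strand. Their centres lay 31, 21, 10, 10 and 26 bp from the summits of qin, papi, nxf2, del and vret.

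A thresholded Ovo-GFP peak lay at the start of 12 of the 33 piRNA pathway genes (36.4%, 95% exact binomial interval 20.4 to 54.9%), beside 23.5% of all protein-coding genes. The genes were papi, squ, spn-E, piwi, wde, armi, aub, nxf2, Nbr, qin, tapas and Panx, in order of rank. The share over all genes lay inside the interval, which covers only the counting of genes. In the pooled list, 21 of 33 members (63.6%, 45.1 to 79.6%) had a summit at a start, beside 54.8% of all genes. With genes that had no summit placed last, the median best pooled rank was 6338 over the members and 22143 over all protein-coding genes. The members that had a thresholded peak were spread through that list, with a median rank of 1677.5 and a median score of 138, beside 1896 and 128 for all genes with a peak.

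**Figure D1:**
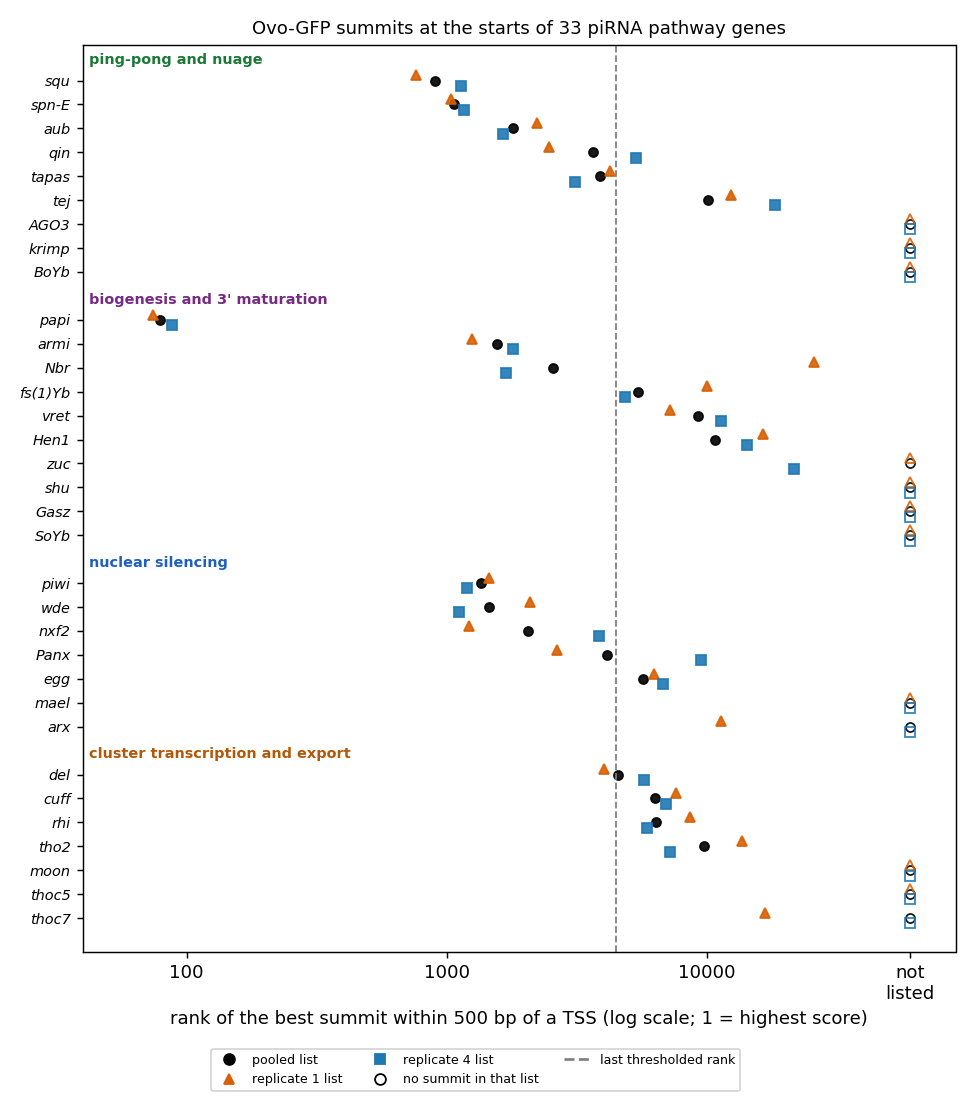
Rank of the best Ovo-GFP summit within 500 bp of a TSS for each of the 33 members (log scale, rank 1 on the left), in the pooled list (circles), replicate 1 (triangles) and replicate 4 (squares), by role. Open symbols on the right mark lists with no summit there, and the dashed line is rank 4477, the last of the thresholded list: 12 members lie to its left in the pooled list, none of them from the cluster transcription and export group.

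Of the ping-pong and nuage genes, 5 of 9 had a thresholded peak (55.6%, 21.2 to 86.3%), beside 23.5% of all genes, which lay inside the interval. The best was at squ, which encodes a nuage protein, with rank 901 and a score of 188, and ranks of 758 in replicate 1 and 1136 in replicate 4. The next was at spn-E, an RNA helicase of the nuage, with rank 1060 and a score of 174, and ranks of 1040 in replicate 1 and 1164 in replicate 4. In the thresholded list both genes ranked above all other members but papi. At aub, which encodes the PIWI protein Aubergine, the summit ranked 1793 with a score of 132, and ranked 2223 in replicate 1 and 1647 in replicate 4. It lay in a coding exon, 118 bp downstream of the start, at chr2L:11001138-11001577 (440 bp).

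The other pair of ping-pong genes with a peak were in the lower part of the thresholded list. The summit of qin, a RING and Tudor protein that keeps ping-pong between Aubergine and AGO3, ranked 3643 with a score of 86.4, and ranked 2475 in replicate 1 and 5321 in replicate 4. The summit of tapas, a Tudor protein of the nuage, ranked 3889 with a score of 82.8. It was matched by rank 3094 in replicate 4, while replicate 1 had no summit within 100 bp and its best summit at a tapas start, 253 bp upstream, ranked 4247. The Tudor protein gene tej had a pooled summit alone, of rank 10083, with ranks of 12299 in replicate 1 and 18269 in replicate 4. AGO3, the Tudor protein gene krimp and the helicase gene BoYb had no summit at a start in any of the 4 lists. AGO3 spans 135048 bp, and its body held 5 pooled summits, the best of rank 20462, while the nearest thresholded summit lay 609185 bp away.

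Of the biogenesis and maturation genes, 3 of 10 had a thresholded peak (30%, 6.67 to 65.2%), beside 23.5% of all genes, and papi had 2 peaks. Papi is a mitochondrial Tudor protein of piRNA 3′ end trimming. Its first peak ranked 79 of 4477 with a score of 452, and ranked 74 in replicate 1 and 88 in replicate 4; this was the best rank of any member in each of the lists. The peak, at chr2L:2221852-2222098, was 247 bp wide against 440 bp for every other thresholded peak at a member's start, and its summit lay in an intron 144 bp upstream of an internal start. The second papi peak lay 18 bp downstream of the most upstream start and ranked 1304 with a score of 157, with ranks of 2436 in replicate 1 and 1052 in replicate 4.

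Armi, an RNA helicase of piRNA precursor processing, had an intronic summit 415 bp downstream of its start, of rank 1562 and score 144, with ranks of 1253 in replicate 1 and 1798 in replicate 4. Nbr, the exonuclease Nibbler that trims small RNA 3′ ends, had a summit 402 bp upstream of its start, of rank 2559 and score 108. It was rank 1686 in replicate 4 and was not found within 100 bp in replicate 1, whose best summit at Nbr ranked 25656. The Nbr peak was therefore matched within 100 bp in replicate 4 alone. Below the threshold, the follicle-cell helicase gene fs(1)Yb had pooled rank 5444 (9995 in replicate 1 and 4835 in replicate 4) and the Tudor protein gene vret had pooled rank 9246 (7221 in replicate 1 and 11323 in replicate 4). Hen1, which methylates piRNA 3′ ends, had pooled rank 10670, with ranks of 16384 in replicate 1 and 14238 in replicate 4. The gene of the endonuclease Zucchini, zuc, had a summit in replicate 4 alone, of rank 21606. The cochaperone gene shu, the mitochondrial scaffold gene Gasz and the helicase gene SoYb had none in any list.

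Of the nuclear silencing genes, 4 of 7 had a thresholded peak (57.1%, 18.4 to 90.1%), beside 23.5% of all genes, which lay inside the interval. The piwi summit lay in an intron 199 bp downstream of the start, at chr2L:10987001-10987440, and ranked 1348 with a score of 154. It ranked 1457 in replicate 1 and 1191 in replicate 4. A weaker pooled summit, of rank 7027, lay 25 bp upstream of the same start. Panx and nxf2 encode subunits of the complex that links target-bound Piwi to heterochromatin. The nxf2 summit, 62 bp downstream of the start in a UTR exon, ranked 2045 with a score of 123, with ranks of 1212 in replicate 1 and 3853 in replicate 4. The Panx summit ranked 4116 with a score of 79.5, with ranks of 2641 in replicate 1 and 9459 in replicate 4. Panx was the member just inside the threshold; the last thresholded peak, of rank 4477, had a score of 74.9.

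The gene of the histone methyltransferase cofactor Windei, wde, had a summit 415 bp upstream of its start, of rank 1448 and score 148, with ranks of 2094 in replicate 1 and 1111 in replicate 4. A second thresholded summit lay in a wde intron 557 bp downstream of the start and ranked 1399 with a score of 151, with ranks of 1315 in replicate 1 and 1548 in replicate 4. The gene of the methyltransferase itself, egg, had a pooled summit of rank 5682, with ranks of 6225 in replicate 1 and 6783 in replicate 4. Asterix, a zinc-finger partner of Piwi encoded by arx, had a summit in replicate 1 alone, of rank 11295. The gene of the HMG-box protein Maelstrom, mael, had none at a start, and its nearest thresholded summit lay 3692 bp away.

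None of the 7 cluster transcription and export genes had a thresholded peak at a start (0%, 0 to 41.0%), beside 23.5% of all genes, and none had one in the gene body or 500 bp upstream, beside 26.3%. Both shares over all genes lay inside the interval. The pooled list placed summits at 4 of the 7, beside 54.8% of all genes. Deadlock, encoded by del, links the cluster chromatin protein Rhino to its partners, and its summit was just outside the threshold at rank 4552 with a score of 74.0, 30 bp downstream of a start. That summit ranked 4024 in replicate 1, among its 4477 best peaks, and had no match within 100 bp in replicate 4. The best replicate 4 summit at a del start, of rank 5696, matched a weaker pooled summit, of rank 17861, at another start of the gene. Cuff, which protects cluster transcripts from termination, had pooled rank 6312, with ranks of 7622 in replicate 1 and 6954 in replicate 4. The Rhino gene rhi, a heterochromatin protein homologue, had pooled rank 6338, with ranks of 8565 in replicate 1 and 5882 in replicate 4. Tho2, of the THO export complex, had pooled rank 9758, with ranks of 13563 in replicate 1 and 7223 in replicate 4. The del, cuff and rhi summits lay 75, 1835 and 1861 ranks outside the threshold, and the cuff summit was nearer the start of CG13185. The share of all genes in that range is not given here, so these ranks are not a result about the group. The transcription factor gene moon and the THO gene thoc5 had no summit at a start in any list, and thoc7 had 1 in replicate 1 alone, of rank 16720.

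Across the roles, the median best pooled rank with missing genes last was 3889 for ping-pong and nuage, 4116 for nuclear silencing and 9758 for cluster transcription and export. The biogenesis and maturation genes, an even number, had middle ranks of 9246 and 10670, on either side of 9758. The intervals of the 4 shares overlapped, and no test of their difference was made. In all, 9 of 33 members (27.3%, 13.3 to 45.5%) had no summit at a start in any of the 4 lists, beside 35.4% of all genes.

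**Figure D2:**
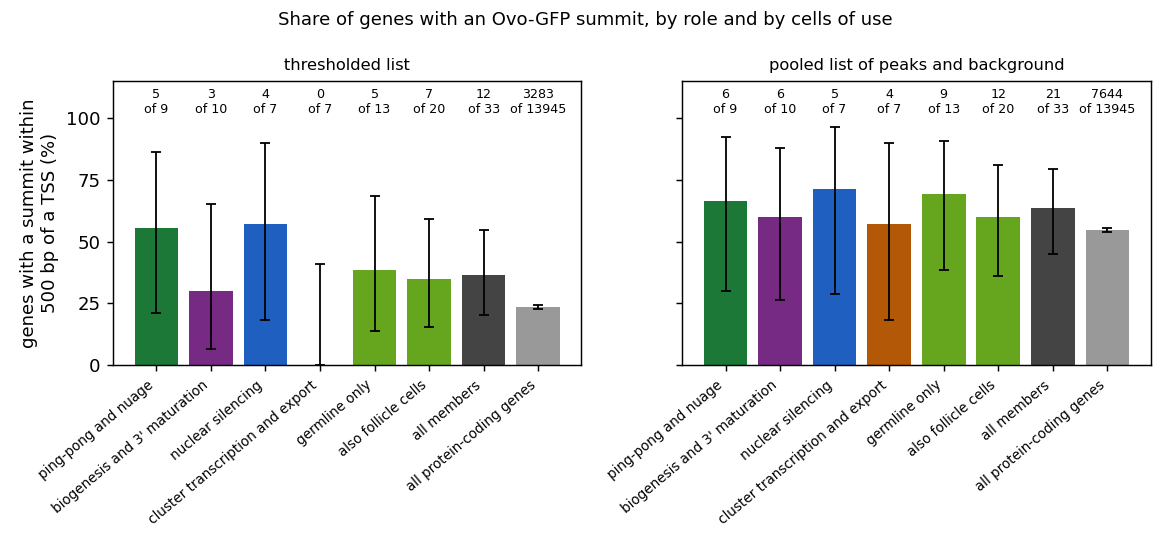
Percentage of genes with a summit within 500 bp of a TSS in the thresholded list (left) and the pooled list (right), by role, by cells of use, for all 33 members and for all 13945 protein-coding genes. Bars are shares with 95% exact binomial intervals and the counts are printed above; the cluster transcription and export bar is 0 of 7 in the thresholded list and 4 of 7 in the pooled list.

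The shares of genes with a peak in the germline-only class and in the class also used in follicle cells each lay inside the other's interval. A thresholded peak lay at 5 of 13 germline-only genes (38.5%, 13.9 to 68.4%) and at 7 of 20 genes also used in follicle cells (35%, 15.4 to 59.2%), beside 23.5% of all genes. In the pooled list the counts were 9 of 13 germline-only genes (69.2%, 38.6 to 90.9%) and 12 of 20 follicle-class genes (60%, 36.1 to 80.9%), beside 54.8% of all genes. The shares over all genes lay inside all 4 intervals. The median best pooled rank was 6312 for germline-only genes. The follicle class, an even number of genes, had middle ranks of 9246 and 9758. The 5 germline-only genes with a peak were all ping-pong genes, since the other germline-only genes are rhi, del, cuff and moon, so cell class and role overlap. Leaving out egg, wde, Nbr and the 3 THO genes, which also have general functions in other cells, gave 5 of 14 for the follicle class. Leaving out fs(1)Yb, which acts in follicle cells and not in the germline, gave 7 of 19.

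Extending the count to the gene body and 500 bp upstream gave 13 of 33 members (39.4%, 22.9 to 57.9%), beside 26.3% of all genes. Hen1 was the member added, through an intronic summit 4776 bp downstream of its start that ranked 663 with a score of 214, with ranks of 722 in replicate 1 and 684 in replicate 4. That summit lay 120 bp from a start of bsd, so it is not placed at Hen1 alone. Inside the gene body itself, 10 of 33 members (30.3%, 15.6 to 48.7%) held a thresholded summit, beside 13.0% of all genes. That share lay below the interval, which covers only the counting of genes and not the choice of members. The members were longer, with a median length of 3559 bp against 2166 bp over all genes, and the part of length in this count was not tested. With the pooled list, 24 of 33 members (72.7%, 54.5 to 86.7%) had a summit in the body or 500 bp upstream, beside 65.8% of all genes.

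The peaks of 6 of the 12 members were shared with another protein-coding gene whose start lay within 500 bp of the same summit, so such a summit cannot be given to 1 gene. This share, 50%, stood beside 55.8% of all genes with a peak. At wde, Panx and Nbr the neighbour's start was the nearer one. The wde summit lay 44 bp from CG12935, the Panx summit 95 bp from CG9485 and the Nbr summit 156 bp from Noc2. At spn-E and ND-23, which are transcribed in opposite directions from starts 302 bp apart, the spn-E start was nearer. The squ summit lay 449 bp downstream of the start of grp, which is also the upstream start of squ. It lay 67 bp upstream of an internal squ start. The starts of armi and CG46463 were 2 bp apart. The member's own start was the nearest one at 9 of 12 members (75%), beside 73.3% of all genes with a peak.

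The peaks of papi, piwi, aub, nxf2, qin and tapas were shared with no other protein-coding start. The best-ranked summit lay upstream of the start at 7 of 12 members (58.3%), beside 79.1% of all genes with a peak, and within 100 bp of it at 5 of 12 (41.7%), beside 44.3%, taking the best-ranked summit of each gene. The median distance to the start was 131 bp for members and 119 bp for all genes with a peak. Below the threshold, the summits of fs(1)Yb, cuff and vret were also nearer a neighbour's start, at 51 bp from CG2701, 129 bp from CG13185 and 26 bp from HP1c.

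**Figure D3:**
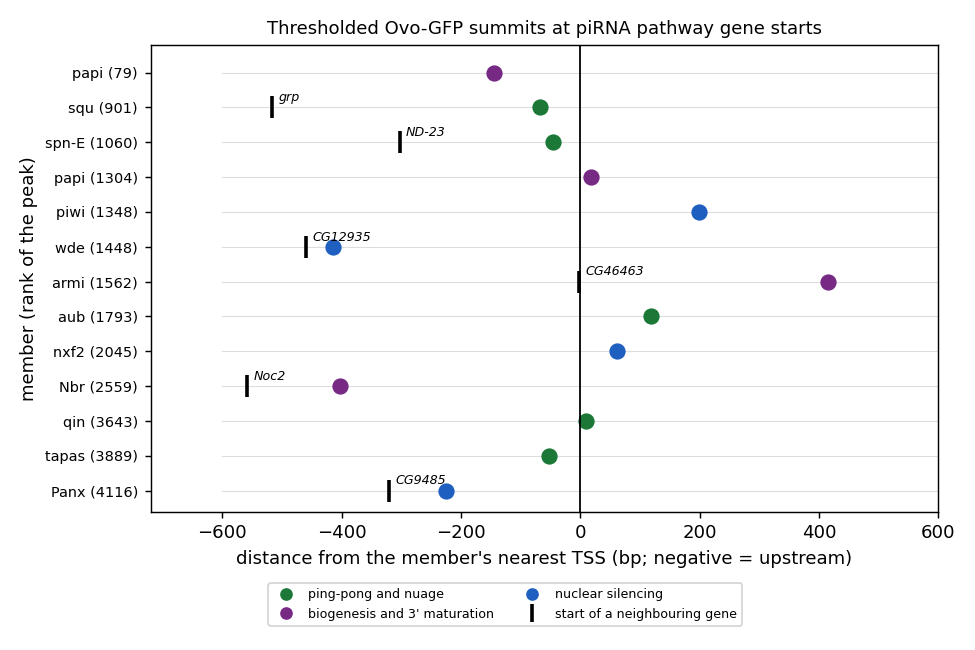
Distance in bp of the 13 thresholded summits at 12 members from the member's nearest TSS (0; negative is upstream), ordered by rank, with the rank in brackets and coloured by role. Vertical ticks mark the start of a neighbouring gene that shares the summit; at wde, Panx and Nbr the summit is closer to that tick than to 0.

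The replicates placed most member peaks in both lists. Of the 13 thresholded promoter peaks at members, 11 had a summit within 100 bp in both replicates (84.6%), beside 92.0% of all 2851 thresholded promoter peaks, and 9 (69.2%) were among the 4477 best of both, beside 68.9%. For those 11, the larger replicate rank was a median of 1.5 times the smaller, with a range of 1.12 to 3.58 times, beside a median of 1.56 times over all promoter peaks. The smallest ratio was at spn-E and the largest at Panx. Replicate 1 gave the better rank in 7 of 11, beside 48.9% over all promoter peaks. Spearman's rho between the replicate ranks was 0.51 over these 11 peaks and 0.64 over all promoter peaks found in both, given as descriptions of peaks that share the same libraries.

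Taken by replicate, the 4477 best peaks of replicate 1 put a summit at 12 of 33 members, beside 22.7% of all genes, and those of replicate 4 at 10 of 33, beside 23.4%. Against the thresholded list, replicate 1 gained del and lost Nbr, while replicate 4 lost qin and Panx.

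**Figure D4:**
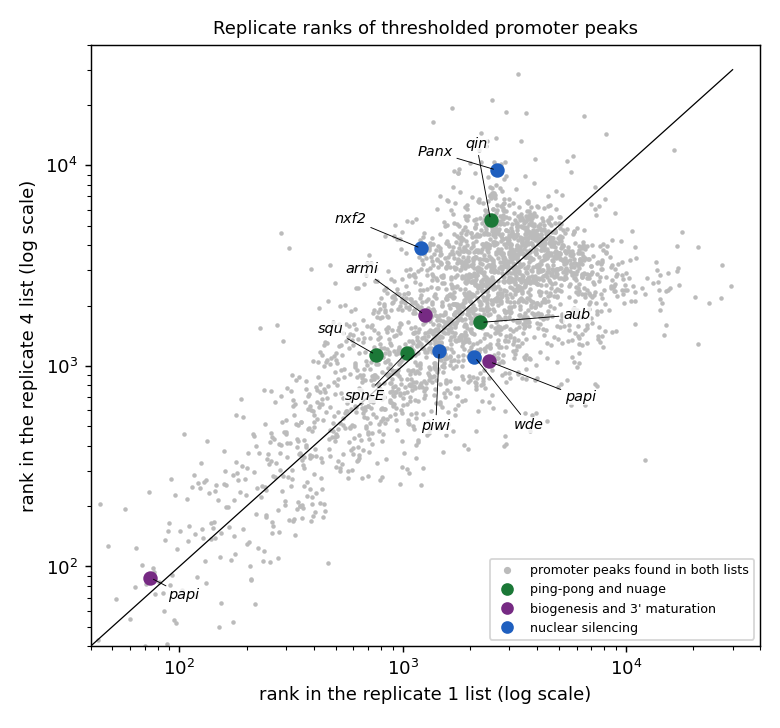
Rank in the replicate 4 list against rank in the replicate 1 list (both log scales) for thresholded promoter peaks found within 100 bp in both lists; the diagonal marks equal ranks, and the axes leave out the peaks ranked well above the first papi peak. Large points are the 11 member peaks, coloured by role: the first papi peak has ranks 74 and 88, and Panx, nxf2 and qin lie farthest above the diagonal.

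The known Ovo core was found near some member summits. TAACNGT lay within 50 bp of 4 of 13 member promoter summits (30.8%), at armi, qin, Nbr and the second papi peak, beside 13.7% of all 2851 thresholded promoter summits; both strands were searched. TAACGG, which was added after the data had been seen and overlaps TAACNGT where N is G, lay at 3 of 13 (23.1%), beside 15.7%. Either lay at 6 of 13 (46.2%), beside 20.9%. These shares rest on 13 summits, and no interval or test was made for them. With whole peaks, the core count was again 4 of 13 for members, beside 30.0% of all promoter peaks.

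The other motifs were found at few member summits. The permuted core TNACAGT, which coincides with TAACNGT in the letters TAACAGT, lay at 1 of 13, at aub, beside 7.33%. Within 100 bp of the summits both TNACAGT and TAACNGT lay at 4 of 13 members, beside 13.0% of all promoter summits for TNACAGT and 20.0% for TAACNGT. Over whole peaks TNACAGT was again at 4 of 13, the same count as TAACNGT, beside 24.0%. The DRE lay at spn-E alone (1 of 13), beside 3.79%. GAGAG lay at none of 13, beside 16.1%. The best-ranked member summit, the first at papi, held none of these 5 motifs, which says only that these letters are not within 50 bp of it.

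Counted at starts instead of summits, 13 of 33 members (39.4%) had TAACNGT within 500 bp of a TSS, beside 33.2% of all genes. Of those 13 members 6 had a thresholded peak (46.2%), beside 34.5% of all genes with a site. Of the 20 members with no such site 6 had a peak (30%), beside 18.1%. Among the members with a site, tej had 3, and papi, qin, vret and del had 2 at a start. Of these, papi and qin had a thresholded peak, and tej, vret and del had none.

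Of 25 other genes of the pathway, 8 had a thresholded peak at a start (32%, 14.9 to 53.5%), beside 23.5% of all genes, and 18 (72.0%, 50.6 to 87.9%) had a pooled summit there, beside 54.8%. Both shares over all genes lay inside the intervals of these genes. The best was at ctp, a dynein light chain that also joins the Panoramix complex, with rank 378 and ranks of 379 in replicate 1 and 490 in replicate 4. Trf2, a TBP-related factor that works with moon, had rank 1105, with ranks of 524 in replicate 1 and 1981 in replicate 4. Trf2 also had 5 further thresholded summits in its body, the best of which ranked 11 and lay 92 bp from a start of lawc. The gene mino, a mitochondrial acyltransferase gene, had rank 1401, with ranks of 1237 in replicate 1 and 1771 in replicate 4. The zinc-finger gene kipf, whose product recruits Rhino to clusters, had rank 1465, with ranks of 1720 in replicate 1 and 1555 in replicate 4.

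The remaining 4 were lower in the list. Su(var)205, the gene of heterochromatin protein 1a, had its best summit at rank 1980 and shared it with Ssb-c31a. That summit had no match within 100 bp in either replicate. The replicate summits matched a second peak, of rank 3737, which lay 26 bp from the start of Ssb-c31a. The zinc-finger heterochromatin gene sov had rank 2920, the SUMO ligase gene Su(var)2-10 had rank 2949, and Boot, of cluster transcript export, had rank 3177. The germline helicase gene vas had no summit at a start in any list, but held thresholded intronic summits of rank 2615 and rank 3635. The summit of rank 3635 lay 35 bp from the start of vig, and that of rank 2615 lay 664 bp from starts of both vas and solo. Neither is placed at vas alone.

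By chromosome arm, 5 of 9 members on 2L had a thresholded peak, beside 20.8% of all genes on that arm. The counts were 3 of 12 on 2R beside 22.4%, 2 of 7 on 3L beside 22.6%, 2 of 3 on 3R beside 24.4% and 0 of 2 on X beside 28.6%. The 2 members on X were fs(1)Yb and moon.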

How the data were processed

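ChIP-seq of GFP-tagged Ovo was done in whole adult females, as 2 biological replicates of 1 group. The deposited peak lists are on dm6, per the labels; another 4 of the 8 lists are on dm3 and were not used. The score of each peak is the authors' deposited enrichment value. Per the deposited text records, 1 dm6 list was called on both replicates pooled, and the thresholded list was made from the relaxed lists by irreproducible discovery rate (IDR); checked on the files, it equals the 4477 best pooled peaks. The score was used for ranks alone; the peak caller, its threshold and the read processing are each not given in the sources used here. Read depth is not given either, so no counting error of a peak could be stated, and long relaxed lists hold background.

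Summits were set against 19607 protein-coding TSSs of Ensembl release 115 and RefSeq sequence of dm6 with Python 3.11.15, pandas 2.3.3, numpy 2.4.6 and matplotlib 3.10.9. Exact binomial (Clopper-Pearson) intervals came from scipy 1.17.1 and cover the counting of genes only. Positions are 1-based. Summits within 100 bp were matched between lists, and motifs were searched within 50 bp of summits on both strands. The lookup of summits at a TSS, with their distances and ranks, was tested on summits planted at known distances. Gene-body counts, replicate matches and shared starts were not tested in that way. The members, their classes and the 25 other genes (3 matched by synonym) were chosen with earlier results of these data known; no test over members was made, and their share is given beside all genes. All members are accounted for by rule. Those with a thresholded peak at a TSS are given with rank, score and replicate ranks. The others are given by rank or by the lack of a summit, and neighbours where they share a summit. Distances from the start are given in the text for some members only. Other TSS windows, list lengths, TSS choices and single replicates were tried as alternatives.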

Additional observations from a re-analysis of the deposited data

How the results depend on the processing

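No paired analysis was possible because the study has 1 group of replicates. A window of 100 bp around each TSS left 6 of the 33 members with a thresholded peak (11.7% of all genes). With 500 bp, the count was 2 among the 1000 peaks of highest score (6.19%), 7 among the 2000 best (12.4%) and 21 in the pooled list (54.8%). Without a replicate, the count ranged between 10 and 12. In the same order (100 bp, 1000 best, 2000 best, pooled), the 25 other pathway genes gave 5, 1, 5 and 18. Of the 13 germline-only members, 4 had a peak at 100 bp and 5 at 250 bp. When a summit went to the nearest TSS alone, the count was 5. These members numbered 1 in the 1000 best, 3 in the 2000 best and 9 in the pooled list. Members also used in follicle cells numbered 2 at 100 bp, 1 in the 1000 best, 4 in the 2000 best and 12 in the pooled list. At 250 bp they numbered 4 of 20 (20%), beside 19.7% of all genes. By nearest TSS alone they again numbered 4 of 20, beside 17.97% of all genes. All members together numbered 9 of 33 (27.3%) at 250 bp and 9 of 33 by nearest TSS, beside the same shares of all genes. Nuclear silencing gave 1 at 100 bp, 0 in the 1000 best, 2 in the 2000 best and 2 by nearest TSS. Of the 10 biogenesis genes, 1 had a peak at 100 bp and 1 at 250 bp. They numbered 1 in the 1000 best and 6 in the pooled list. Of the 9 ping-pong genes, 1 had a peak in the 1000 best and 3 in the 2000 best. Of the 7 cluster transcription and export genes, 4 had a summit in the pooled list. Without a replicate, their count ranged between 0 and 1. Gene bodies with 500 bp upstream gave 3 of the 33 members in the 1000 best, beside 7.71% of all genes. These alternatives narrow or widen what is counted. The 12 members remained with a 1000 bp window, beside 26.44% of all genes, and with overlap of the whole peak interval, beside 25.03%. At 100 bp the best pooled rank became 7027 at piwi, 14447 at aub, 1304 at papi and 7467 at Panx, and armi, wde, Nbr, cuff, Hen1 and fs(1)Yb had no pooled summit left. TAACGG was chosen after seeing the data.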

Other observations

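The flamenco locus (lncRNA:flam), the main source of piRNAs in follicle cells, lies on X at chrX:21631891-21790731 on the plus strand (158841 bp, dm6) and is not protein-coding. It held no thresholded summit. The pooled list had its best summit at a flamenco start 227 bp upstream with rank 7098. The best rank at a start was 3672 in replicate 1, 101 bp upstream, and 5397 in replicate 4, 497 bp upstream. These replicate summits lay at different places, so no position was the best one in all the lists.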
